A study of Gallus gallus with 3 samples.

Results

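Cytokines, chemokines, their receptors and the SOCS inhibitors of cytokine signalling were examined in 3 derivatives of DT40, a line of chicken B lymphoma cells that is widely used because its genes can be targeted efficiently. Members were the array probes whose RefSeq accession belongs to a chicken gene named as an interleukin, CC, CXC or XC chemokine or chemokine receptor, tumour necrosis factor (TNF) ligand or receptor, interferon gamma, interferon receptor, colony-stimulating factor or SOCS protein. The name rule found 149 probes of 80 genes among 43596 probes, of which 11934 could be named. A probe counted as a member if it was well above background on any array, which left 90 probes of 52 genes. The other 59 probes were not well above background on any array, and 28 genes had only such probes. The names were taken from a list and not from measured values, but IL4I1 is an amino acid oxidase that the name rule picks up, and its probe was not well above background.

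The 3 groups were wild-type DT40, cells labelled as a double knock-out (DKO) that carry H2A.Z1, called full-length below, and DKO cells that carry the mutant H2A.Z1ΔC, called truncated below. H2A.Z replaces ordinary H2A in a fraction of nucleosomes, and ΔC is read here as loss of C-terminal sequence. Which genes the double knock-out removed is not given in the sources used here. Each line was measured once, on 1 single-colour Agilent expression array, so no difference below has a replicate check and no p-value is given. The promoter of the introduced gene, the number of clones behind each line and the passage are not given in the sources used here.

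Cytokines are secreted signals that act on cells bearing a matching receptor. Many interleukin receptors, and the interferon receptors, have no kinase of their own and pass the signal through JAK kinases to STAT transcription factors. The SOCS proteins are induced by that route and shut it off. Receptors of the TNF family act through TRAF adaptors and NF-κB, and chemokine receptors act through G proteins to steer migration. In mammals the survival of B cells depends on the TNF ligand BAFF, and their maturation on interleukins such as IL-21, which are mostly made by T cells.

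Levels are given as log2 of the scanner's processed signal relative to the 75th percentile of that array, so that 0 is the signal at the 75th percentile. Levels of different probes are not comparable, and only differences between arrays are used. Only probes that the scanner software rated well above background on each array of a pair were compared, and a log2 difference of at least 1, that is 2-fold, was called. Probes spotted 5 times varied with a standard deviation of 0.0700 to 0.104 on the log2 scale (41 probes), and of 0.121 to 0.248 where their level was below -4 (5 probes). Where a gene had 2 probes (1392 genes), the gap between the differences that the 2 probes gave was taken. Its standard deviation was 0.263 for full-length minus wild type, 0.419 for truncated minus wild type and 0.347 for truncated minus full-length. This spread between probes of a gene is wider than that of a single probe. These spreads are technical and leave out culture, RNA preparation, labelling and hybridisation. Slide 1 carried the arrays of wild-type and full-length cells and slide 2 that of truncated cells. The arrays of slide 1 share a recorded scan date, and that of slide 2 has another. Slide, scan and the truncated line therefore cannot be told apart.

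H2AFZ, a gene that encodes H2A.Z, was lower in both DKO lines. Its probes had levels of 5.87 and 6.17 in wild type, 0.81 and -0.31 in full-length cells, and -0.21 and -0.85 in truncated cells. Whether these probes detect the introduced H2A.Z1 is not known. B-cell markers were well above background for 15, 15 and 16 of 16 genes in wild type, full-length and truncated cells, and CD79B, a chain of the B-cell receptor, had levels of 6.53, 6.58 and 6.63. T-cell markers were well above background for 7, 6 and 6 of 10 genes, and markers of macrophages and granulocytes for 7, 6 and 8 of 9. Not all T-cell markers were dim: CD3D had levels of 6.38, 6.15 and 5.62 by its brighter probe, in the same order. Its other probe had 3.29, 3.09 and 2.50. The summed signal of the T-cell marker probes, in units of the array's 75th percentile, was 95.1, 81.5 and 56.0. From wild type to full-length and truncated cells, the median level over all T-cell marker probes went from -6.15 to -6.99 and -7.09, and that over all myeloid marker probes from -7.08 to -7.86 and -7.34. These medians include probes not well above background. Over probes measured on both arrays, the median difference from wild type in full-length and truncated cells was smaller. It was -0.21 and -0.48 for T-cell markers (10 probes each) and -0.13 and -0.25 for myeloid markers (8 and 7 probes). Single markers moved further in full-length cells, and T-cell markers in opposite directions. CD3E differed from wild type by 3.41 and 0.78 on its probes (5.38 and 2.06 with matrix values). CD5 differed by -3.16 and -0.34 (-2.27 and 0.10), and the myeloid marker TLR4 by -2.04 (-1.30). In truncated cells these probes differed from wild type by less than 1.

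The full-length sample has a second set of values, in the series matrix, that stands apart from its scanner file. For the wild-type and truncated samples the matrix equals the processed signal times 1 factor per array, 1.07 and 1.53. For the full-length sample the ratio varied from probe to probe, with a robust standard deviation of 0.322 on the log2 scale, and what the matrix column was made from is unknown. Of the 75 member probes measured on the array of full-length cells, 7 (9.33%) differed by 1 or more between scanner and matrix, against 4.92% of all 29944 such probes. They were 2 probes of TNFSF13B and 1 each of IL11RA, IL21R, IL6ST, CCR8 and IL17A. Called differences of member probes that use the full-length sample are therefore given below with both sets, and other values of that sample are from the scanner file unless the matrix is named.

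**Figure D1:**
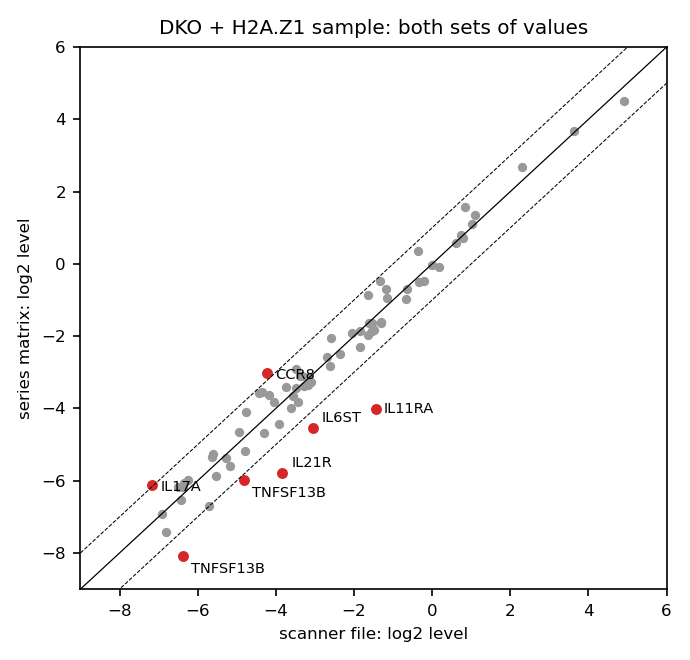
Log2 levels of 75 member probes in the full-length sample, from the scanner file (horizontal axis) and from the series matrix (vertical axis), both relative to the 75th percentile. Each point is a probe, the solid line marks equal values and the dashed lines a difference of 1. The 7 labelled probes lie outside the dashed lines, and IL11RA differs most, at -1.45 against -4.01.

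In full-length against wild-type cells, 9 of 74 member probes (12.2%) were called, 3 higher and 6 lower, where 3.67% of all 29230 probes tested were called (1.43% higher and 2.24% lower). The called probes belonged to 8 of 41 genes, beside 169 of 4218 named genes on the whole array. A gene was counted if any of its probes was called. CXCR7 and IL10RB were higher, and IL10RA, IL11RA, IL18, IL21R, IL6ST and TNFRSF1A were lower. IL10RA and IL11RA were called on 1 probe each, and their other probes were not called. By the matrix values 12 member probes were called (16.2%, against 7.16% of all probes), 4 higher and 8 lower (3.01% and 4.15% of all probes), and 8 of the 9 were called with both sets, TNFRSF1A being the exception.

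In truncated against wild-type cells, 21 of 80 member probes (26.2%) were called, 8 higher and 13 lower, where 7.62% of all 29594 probes were called (3.86% higher and 3.76% lower). These probes belonged to 13 of 45 genes, beside 400 of 4264 named genes on the whole array. The higher genes were CXCR7, IL10RB, TNFRSF13B, CSF3 and SOCS4, and the lower genes included IL11RA, IL21R, IL6ST, IL10RA, TNFSF13B, IL16 and TNFRSF8. IL10RA and IL11RA were again called on 1 probe each, and their other probes were not called. In truncated against full-length cells 16 of 73 probes (21.9%) were called, 7 higher and 9 lower. Of all 29499 probes 5.33% were called (3.65% higher and 1.68% lower). The called member probes belonged to 10 of 40 genes, beside 256 of 4237 named genes on the whole array. The matrix values gave 8 called member probes in this comparison (11%, against 4.16% of all probes), 2 higher and 6 lower (2.85% and 1.31% of all probes), so that 25% of the calls were higher, in place of 43.8%. Only 6 of the 16 probes were called with both sets: 3 of IL16, 2 of TNFSF13B and 1 of CSF3.

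A probe measured on only 1 array of a pair gives a bound in place of a difference. Where the dim probe's level lay above the lowest level rated well above background on its array, the bound is a plain difference from that dim level. Among the folds given below, this was so for IL18 and CXCR1 in truncated cells and TNFRSF1A in full-length cells. Of 12 such members in full-length against wild type, CXCR7 was at least 2-fold higher and 1 probe lower, where 10% and 21.8% of 1885 such probes on the whole array were. Of 10 in truncated against wild type, CXCR7 was higher and CCR2, IL18 and TNFSF13B were lower, beside 14.4% and 17.9% of 2887 probes. Of 14 in truncated against full-length, CSF3R, IFNG and TNFRSF1A were among those higher and IL18 and TNFSF13B lower, beside 15.7% and 8.13% of 2620 probes.

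**Figure D2:**
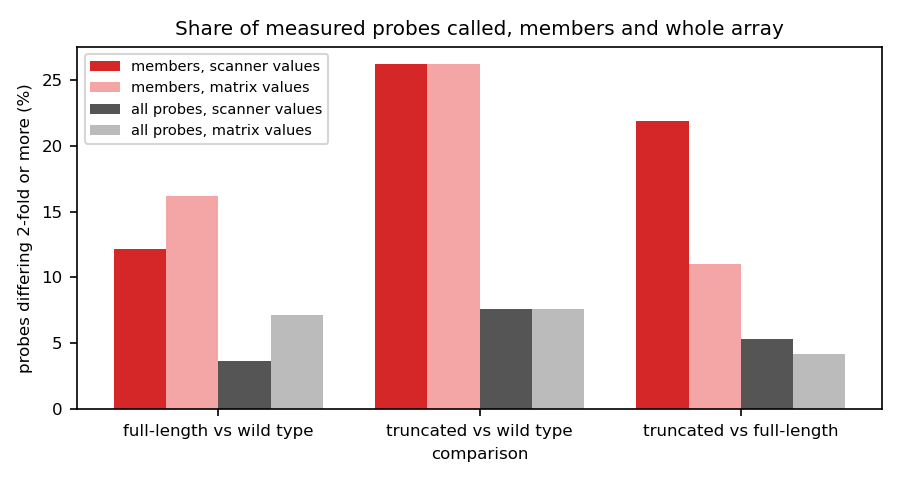
Share of tested probes differing 2-fold or more (vertical axis, percent) in each comparison, for member probes and for all probes, from scanner and from matrix values. Members stand at 12.2%, 26.2% and 21.9% and all probes at 3.67%, 7.62% and 5.33% with scanner values. In truncated against full-length cells the member share is 11% with matrix values.

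The comparisons share arrays, and probes of 1 gene are not independent, so these counts cannot be added. The median difference of the member probes was 0.00 for full-length minus wild type, 0.09 for truncated minus wild type and -0.08 for truncated minus full-length, and that of all probes -0.02, 0.01 and 0.03. Calls were more frequent among dim probes on the whole array: in truncated against wild type 12.8% of all probes with a mean level below -4 were called and 2.86% of those at 0 or more. The member shares in the same ranges were 20.7% (29 probes) and 20% (10 probes), and 31.7% of 41 members against 8.93% of all probes between -4 and 0. The call nearest the threshold was that of IL6ST in full-length against wild type, at -1.01, and the nearest value short of it in that comparison was 0.82, for TNFRSF18. At the edge of detection, a probe of IL18R1 was a member with -7.15 on the truncated array as its highest level, and the IL21 probe was left out with -7.34 on the full-length array.

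**Figure D3:**
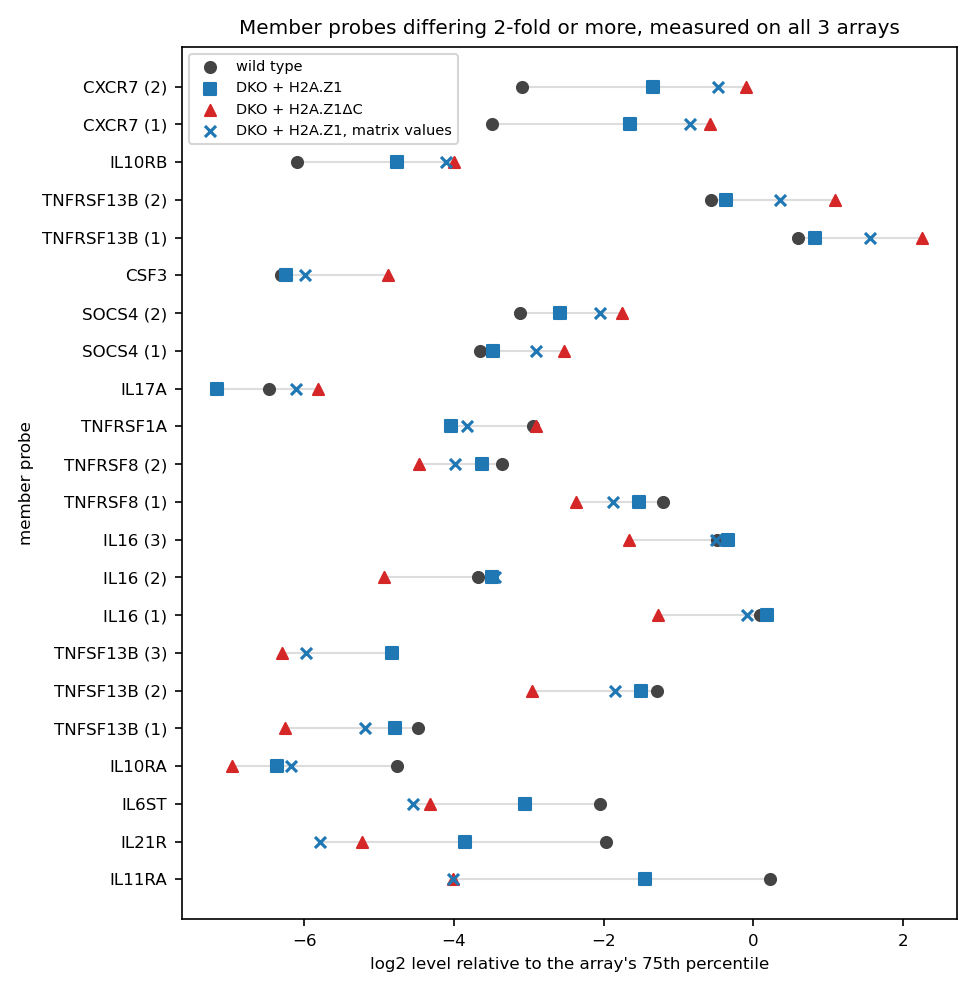
Log2 levels (horizontal axis) of the member probes that were called in any comparison and well above background on all 3 arrays, on the wild-type, full-length and truncated arrays, with the matrix value of the full-length sample as a cross. Numbers in brackets tell apart probes of 1 gene, and probes are ordered by the difference between truncated and wild-type cells. CXCR7 lies at the top with wild type lowest, and IL11RA at the bottom with wild type highest.

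Among chemokine receptors, CXCR7 was higher than wild type in both DKO lines. CXCR7, listed as ACKR3 among its other names, is an atypical receptor that in mammals binds CXCL12 and removes it without G-protein signalling. Its brightest probe had levels of -3.09 in wild type, -1.34 in full-length cells and -0.10 in truncated cells, with a matrix value of -0.47 for full-length cells. The second probe had levels of -3.50, -1.64 and -0.58 in the same order, with a matrix value of -0.85. Wild type was thus lowest on both probes and truncated cells highest. The differences from wild type were 3.36-fold and 3.61-fold in full-length cells (6.16-fold and 6.26-fold with matrix values) and 7.96-fold and 7.53-fold in truncated cells. The remaining probe was not well above background in wild type and had bounds of at least 2.94-fold higher for full-length and at least 5.61-fold higher for truncated cells. Truncated exceeded full-length cells by 1.24 and 1.06 on the log2 scale, but by 0.37 and 0.27 with the matrix values, and median scaling put the second probe at 0.97. Normexp background correction, which adds an offset and compresses dim probes, put it at 0.84.

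The ligand and the signalling receptor paired with CXCR7 were not called. CXCL12 had levels of -0.94, -1.15 and -0.62 in wild-type, full-length and truncated cells, and CXCR4, which guides B cells towards CXCL12, had -2.43, -2.69 and -2.75. The largest of their differences was 0.53, for CXCL12 in truncated against full-length cells. CXCL14 stood at -3.22, -3.33 and -3.14. Another probe each of CXCL12 and CXCL14 was not well above background on any array.

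CCR2, a monocyte receptor in mammals, was measured only in wild type, at -6.50 and -6.83. Its probes were not well above background in either DKO line, with bounds of at least 1.72-fold and 1.38-fold lower in full-length cells and at least 2.13-fold and 1.70-fold lower in truncated cells. CXCR1, a receptor for interleukin-8-type chemokines in mammals, was likewise measured only in wild type, at -6.64. It was at least 1.57-fold lower in full-length cells. In truncated cells it was 1.69-fold lower by its dim level there, -7.40.

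Markers of myeloid cells moved in part with these genes. The monocyte marker CD14 was at -5.66 in wild type and not well above background in either DKO line. The summed signal of the 9 myeloid marker genes, in units of the array's 75th percentile, was 1.5 in wild type, 1.32 in full-length cells and 1.18 in truncated cells. This sum is led by its brightest probes, which moved in opposite directions. SPI1 had levels of -0.50, -0.68 and -1.36, and the brighter CYBB probe -1.46, -1.35 and -1.30. The sum therefore does not show a shared fall of the markers. Whether these cultures of a B-cell line held any myeloid cells was not tested, nor was any part of such cells in the chemokine receptor result. In RNA from a whole culture, fewer cells of a type and less RNA per cell cannot be told apart.

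CCR8, a receptor of T cells in mammals, and CCL1, its ligand there, were not called. CCR8 had levels of -3.63, -4.22 and -3.60 by its brightest probe and -4.03, -4.42 and -3.81 by the next, the full-length array being lowest on both. The matrix reversed that order, with -3.03 and -3.58 for the full-length sample. CCL1 stood at 0.89, 1.09 and 1.05. The remaining chemokines were dim: CCL20 had levels between -6.99 and -5.61, CCL4 between -6.91 and -3.92, and CCL5 was measured in wild type and truncated cells only, at -6.54 and -6.82. No chemokine probe was called in any comparison, of 7, 8 and 7 tested, where 3.67%, 7.62% and 5.33% of all probes were called. With so few probes a count of 0 does not set chemokines apart from the whole array.

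**Figure D4:**
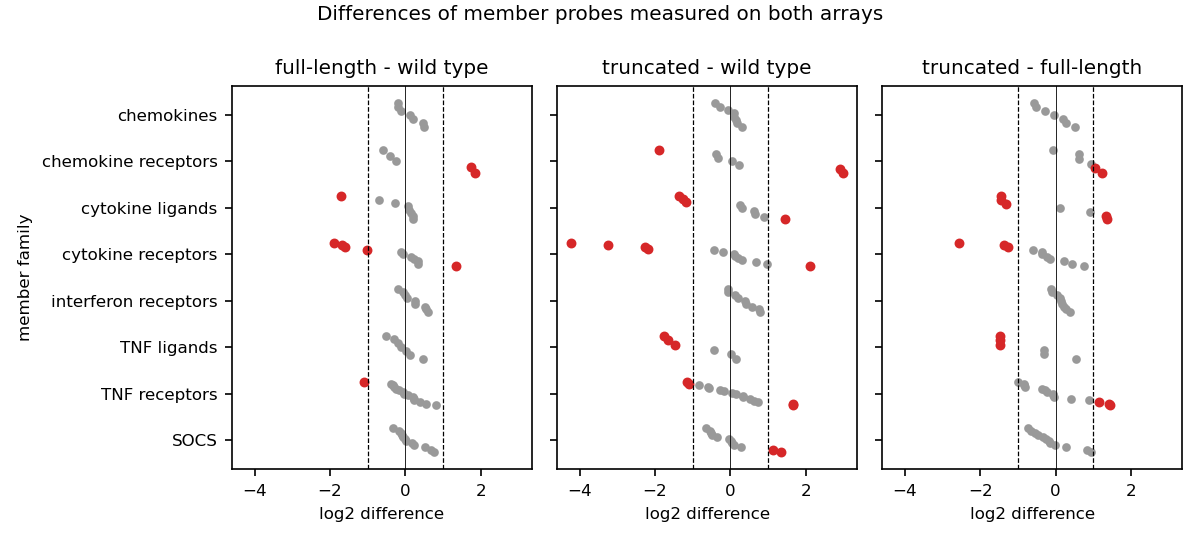
Log2 differences (horizontal axis) of member probes measured on both arrays of each comparison, grouped by family, from scanner values. Each point is a probe, red points reach the dashed lines at 1 or -1, and grey points do not. Red points lie among the receptors for cytokines, chemokines and TNF ligands, the cytokine and TNF ligands and, in truncated against wild type, the SOCS genes, and none lies among chemokines or interferon receptors.

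Of the IL-6 receptor family, IL6ST and 1 probe of IL11RA were lower in both DKO lines. IL6ST encodes gp130, the chain that all receptors of this family share to signal, while IL6R and IL11RA encode the chains that bind IL-6 and IL-11. IL6ST had levels of -2.04 in wild type, -3.05 in full-length cells and -4.32 in truncated cells, with a matrix value of -4.55 for full-length cells. It was 2.01-fold lower than wild type in full-length cells (5.67-fold with matrix values) and 4.83-fold lower in truncated cells. Its full-length difference of -1.01 became -0.97 with median scaling and -0.99 with quantile normalization, just short of the threshold. Truncated minus full-length was -1.27 with scanner values but 0.23 with the matrix and -0.87 with normexp.

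The probes of IL11RA disagreed. Probe A_87_P143028 had levels of 0.22 in wild type, -1.45 in full-length cells and -4.01 in truncated cells, differences from wild type of -1.67 and -4.23. Probe A_87_P038072 had levels of -1.08, -1.19 and -0.96, differences of -0.11 and 0.12. Both probes carry the same transcript accession, so the files do not show which form of the transcript each detects. The range between them in truncated against wild type, 4.35, was the largest among 22 member genes with more than 1 probe measured on all arrays, where the median range was 0.24. The matrix value of the first probe in full-length cells was -4.01, equal to the truncated array to the second decimal, so the difference between truncated and full-length cells, -2.56 with scanner values, was 0.00 with the matrix. IL11RA as a gene therefore has no single direction in these data.

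IL6R was not called. Its levels were 2.06, 2.29 and 2.73 in wild-type, full-length and truncated cells, and truncated exceeded wild type by 0.67. The ligand IL-6 had 2 probes, neither well above background on any array. Of other receptors that use gp130, CNTFR, the neighbour of IL11RA in the gene order, had levels of -6.60, -6.62 and -6.96, with a matrix value of -4.79 for full-length cells. LIFR was measured only in wild type, at -6.43, and its matrix value for full-length cells was -5.94.

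Among receptors that use the common gamma chain, IL21R was lower in both DKO lines and the gamma chain itself was not called. IL-21 drives B-cell activation and plasma cell formation in mammals. IL21R probe A_87_P035809 had levels of -1.97 in wild type, -3.85 in full-length cells and -5.23 in truncated cells, with a matrix value of -5.79 for full-length cells. The 3 scanner values are well apart, with wild type highest. It was 3.70-fold below wild type in full-length cells (14.2-fold with matrix values) and 9.57-fold below it in truncated cells. Truncated minus full-length was -1.37 with scanner values, but 0.57 with the matrix and -0.77 with normexp. A second IL21R probe was not well above background on any array. The common gamma chain IL2RG had levels of 4.98, 4.91 and 4.54 by probe A_87_P277723 and 3.47, 3.63 and 3.26 by its other probe, a difference of -0.44 and -0.21 between truncated and wild-type cells.

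IL7R and IL2RA, which pair with IL2RG, were at or below the detection limit, and IL4R and IL9R had no named probe. IL7R was measured by 1 of 2 probes and on the truncated array only, at -6.62, at least 1.49-fold above wild type and at least 1.59-fold above full-length cells. IL2RA, the high-affinity chain of the IL-2 receptor, was not well above background on any array. The ligands IL-2, IL-4, IL-9, IL-15 and IL-21 were likewise not well above background with any probe.

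In the IL-10 and interferon receptor group, IL10RB was higher in both DKO lines. IL10RB is the chain shared by receptors for IL-10 and related cytokines. Its single probe had levels of -6.10 in wild type, -4.76 in full-length cells and -4.0 in truncated cells, with a matrix value of -4.11 for full-length cells. It was 2.54-fold above wild type in full-length cells (3.97-fold with matrix values) and 4.29-fold above it in truncated cells. With normexp the log2 differences were 0.44 and 0.81.

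In the gene order, IL10RB lies between IFNAR2, which no named probe measured, and IFNAR1, both chains of the type I interferon receptor, and IFNGR2, a chain of the interferon gamma receptor, follows IFNAR1. All 3 IFNAR1 probes were above wild type by 0.51 to 0.61 in full-length and by 0.58 to 0.78 in truncated cells, short of the threshold. IFNAR1 probe A_87_P037924 had levels of -2.12, -1.61 and -1.37. The IFNAR1 differences in full-length cells were, by the matrix, 0.15 to 0.48. IFNGR2 differed from wild type by -0.19 to -0.02 in full-length and by -0.06 to 0.38 in truncated cells, and IFNGR1, on 3 probes, by 0.04 to 0.26 and by -0.05 to 0.41. None of the 9 interferon receptor probes was called in any comparison, a count too small to be read against the 3.67%, 7.62% and 5.33% of all probes.

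IL10RA, the chain that binds IL-10, had probes that disagreed. Probe A_87_P035433 had levels of -4.77 in wild type, -6.37 in full-length cells and -6.96 in truncated cells, 3.04-fold (2.66-fold with matrix values) and 4.58-fold lower than wild type. The other probes, with levels of -2.18, -1.84 and -1.98 and of -3.60, -3.27 and -3.50, were above wild type by 0.33 to 0.34 in full-length and by 0.10 to 0.20 in truncated cells. The disagreeing probe is the dimmest on each array, all 3 carry the same accession, and its differences shrank to -0.56 and -0.74 with normexp. The ligand IL-10 was measured on the truncated array only, at -7.00. Interferon gamma had levels of -6.61 and -6.97 in wild type and -6.35 and -6.08 in truncated cells on its 2 probes. Neither was measured on the full-length array, and truncated cells were at least 1.91-fold and 2.30-fold higher there, while the matrix put the full-length sample at -7.04 and -5.99.

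Among cytokine ligands, IL16 was lower in truncated cells than in both others, and this held with either set of full-length values. IL16 encodes a precursor from which a T-cell attractant is cut. The 3 measured IL16 probes had levels of 0.09, -0.49 and -3.68 in wild type, 0.18, -0.33 and -3.49 in full-length cells, and -1.28, -1.66 and -4.94 in truncated cells. Wild-type and full-length arrays lay within 0.19 of each other on each probe. Truncated cells were 2.24-fold to 2.58-fold below wild type and 2.50-fold to 2.74-fold below full-length cells, or 2.23-fold to 2.82-fold below the matrix values. With normexp the dimmest probe moved to -0.71 against wild type and -0.86 against full-length cells. Its remaining probe was not well above background on any array.

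IL18, an inflammatory cytokine of the IL-1 family, was lower in both DKO lines. Its measured probe had levels of -4.0 in wild type and -5.71 in full-length cells, 3.27-fold lower, with a matrix value of -6.69. With normexp this difference was -0.71 on the log2 scale, short of the threshold. In truncated cells it was not well above background. Its dim level there, -7.52, was 11.51-fold below wild type and 3.52-fold below full-length cells, or 1.78-fold below the matrix value. These folds rest on that dim level and are not minimum values. The values of CD14 and the myeloid markers given above hold beside IL18 too. The receptor chain IL18R1 was measured on the truncated array only, at -7.15, at least 1.04-fold above wild type. IL1B, of the same family, stood at -5.48, -5.28 and -5.17.

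CSF3, the granulocyte colony-stimulating factor, had levels of -6.31 in wild type, -6.24 in full-length cells and -4.88 in truncated cells. Truncated cells were 2.71-fold above wild type and 2.58-fold above full-length cells, or 2.15-fold above the matrix value of -5.98. With normexp the differences were 0.41 and 0.31 on the log2 scale. The receptor CSF3R had levels of -6.69 in wild type and -5.74 in truncated cells, a difference of 0.96, and in full-length cells it was at least 2.93-fold below truncated cells (2.27-fold by the matrix value of -6.92). IL17A had levels of -6.47, -7.16 and -5.82, and its difference of 1.34 between truncated and full-length cells was 0.29 with the matrix and 0.26 with normexp. IL13 stood at -6.22, -6.51 and -5.59. IL17RD, a receptor of the IL-17 family, was measured at -6.60 in wild type and -6.28 in truncated cells. Of the 20 ligand genes, 12 had no probe well above background on any array, among them IL-3, IL-5, IL-12B, IL-22 and CSF2.

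In the TNF family, the B-cell survival ligand BAFF, encoded by TNFSF13B, was lower and its receptor TACI, encoded by TNFRSF13B, higher in truncated cells than in wild type. TNFSF13B probe A_87_P035988 had levels of -1.29 in wild type, -1.5 in full-length cells and -2.96 in truncated cells. Probes A_87_P133113 and A_87_P239248 had levels of -4.48 and -4.83 in wild type, -4.78 and -4.82 in full-length cells, and -6.25 and -6.30 in truncated cells. On these 3 probes truncated cells were 2.77-fold to 3.41-fold below wild type. Another probe, at -6.50 in wild type, was not well above background in truncated cells, at least 2.13-fold lower. The last, A_87_P110528, differed by -0.42 only, with levels of -3.25, -3.37 and -3.68. All 5 probes were thus lower in truncated cells than in wild type. The difference of the last was about as large as 0.419, the standard deviation of the gap between 2 probes of a gene. With normexp the 2 dimmer called probes moved to -0.64 and -0.57, while the brightest stayed at -1.43.

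Full-length cells lay near wild type in TNFSF13B by the scanner values, with differences of -0.31 to 0.13 over the 5 probes. The matrix values for full-length cells differed from wild type by -1.59 to 0.13, and 2 of the 5 probes passed the threshold, at -1.15 and -1.59. In truncated against full-length cells the called probes differed by -1.47, -1.46 and -1.47 with scanner values, and by -1.12, -1.06 and -0.32 with the matrix.

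TNFRSF13B had levels of 0.60 and -0.57 in wild type, 0.83 and -0.37 in full-length cells, and 2.25 and 1.09 in truncated cells on its 2 probes. Truncated cells were 3.15-fold above wild type on both probes, and 2.68-fold and 2.74-fold above full-length cells. The matrix put full-length cells at 1.56 and 0.36, 1.96-fold and 1.91-fold above wild type and 1.61-fold and 1.65-fold below truncated cells. The full-length line was therefore near wild type with scanner values and between the other lines with matrix values. TNFRSF13C, the BAFF receptor that carries the survival signal in mammals, was not called with scanner values. Its probes had levels of -4.05 and -4.79 in wild type, -4.35 and -5.16 in full-length cells, and -4.63 and -5.38 in truncated cells, differences of -0.58 and -0.59 between truncated and wild-type cells. By the matrix its probes differed in direction in truncated against full-length cells, at -1.08 and 0.22.

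**Figure D5:**
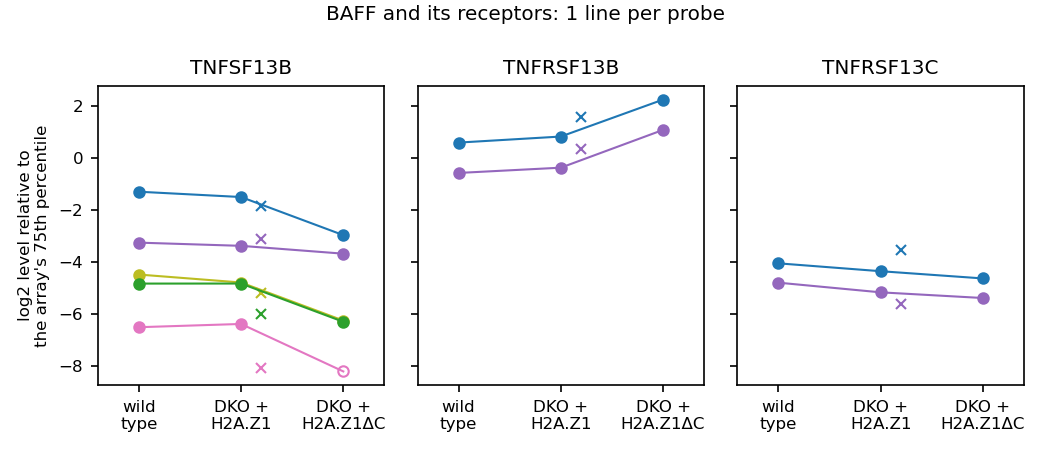
Log2 levels (vertical axis) of BAFF (TNFSF13B, 5 probes), TACI (TNFRSF13B, 2 probes) and the BAFF receptor (TNFRSF13C, 2 probes) in wild-type, full-length and truncated cells. Each line is a probe, open circles were not well above background, and crosses are matrix values for full-length cells. TNFSF13B lines drop and TNFRSF13B lines climb between full-length and truncated cells.

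Of the other TNF receptors, TNFRSF8 (CD30, an activation marker of lymphocytes) was lower in truncated cells and TNFRSF1A (the main TNF receptor) lower in full-length cells. TNFRSF8 had levels of -1.20 and -3.36 in wild type, -1.53 and -3.62 in full-length cells, and -2.36 and -4.47 in truncated cells. Truncated cells were 2.24-fold and 2.15-fold below wild type, and with normexp the dimmer probe moved to -0.70. TNFRSF8 lies next to TNFRSF1B, the second TNF receptor, whose differences in truncated against wild type were -0.84 and -0.29.

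TNFRSF1A had levels of -2.95 in wild type, -4.04 in full-length cells and -2.90 in truncated cells, so that the full-length array alone was low. It was 2.14-fold below wild type, or 1.84-fold with the matrix value, and truncated exceeded full-length cells by 1.15, or 0.92 with the matrix. With normexp these differences were -0.68 and 0.71, so that neither call held. The second probe was at -6.21 in wild type and -5.60 in truncated cells, and was not well above background in full-length cells. Its dim level there, -7.20, was 1.98-fold below wild type and 3.03-fold below truncated cells. TNFRSF18 (GITR) stood out in the opposite way, short of the threshold: its levels were -3.93, -3.11 and -4.11, with full-length cells highest.

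The remaining receptors of the family differed by less than 1 in every comparison. TNFRSF21 was above wild type by 0.22 to 0.55 in full-length and by 0.14 to 0.51 in truncated cells on 3 probes. TNFRSF10B, a receptor for the death ligand TRAIL, stood at -4.88, -4.94 and -4.54, and TRAIL itself (TNFSF10) at -2.09, -1.63 and -1.93. TNFRSF19 had levels of -6.18, -6.35 and -5.45. TNFSF8, the ligand of CD30, had levels of -6.29, -6.80 and -6.27 and was not called, although the matrix put the full-length sample at -7.41, -1.12 below wild type.

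Among the inhibitors, only SOCS4 was called, in truncated against wild-type cells. In mammals SOCS1 and SOCS3 are the members induced most by interferons and by gp130 cytokines, while SOCS4 and SOCS5 are less well understood. SOCS4 had levels of -3.11 and -3.65 in wild type, -2.58 and -3.48 in full-length cells, and -1.76 and -2.53 in truncated cells on its 2 probes. Truncated cells were 2.55-fold and 2.17-fold above wild type, and with normexp the dimmer probe moved to 0.83. By the matrix full-length cells were 2.09-fold and 1.68-fold above wild type, so that the sample lay nearer to truncated cells than with scanner values.

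SOCS1 had levels of -1.98 and -3.37 in wild type, -1.30 and -2.61 in full-length cells, and -1.96 and -3.34 in truncated cells. Full-length cells were highest on both probes, by 0.68 and 0.76 over wild type and by 0.37 and 0.55 with the matrix. SOCS3 differed from wild type in truncated cells by -0.54 and -0.50, and SOCS6 by -0.64 to -0.36 on 3 probes. SOCS5 differed from wild type by -0.03 to 0.27 on 3 probes, and SOCS2 was not well above background on any array.

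Genes that pass the signals on were read from lists of pathway members, many of which had no named probe. A named probe was found for 15 of 27 listed JAK-STAT genes. The same held for 21 of 48 listed genes downstream of TNF and IL-1 receptors and 11 of 26 downstream of chemokine receptors. Of 37 probes of 14 JAK-STAT genes, 2 were called lower in each comparison with wild type, where 2.24% and 3.76% of all probes were. Both belonged to STAT4, which transmits IL-12 signals. In truncated against full-length cells 0 of the 37 were called, beside 5.33% of all probes. STAT4 probe A_87_P081916 had levels of 1.85 in wild type, 0.62 in full-length cells and 0.83 in truncated cells. The other probe had -0.46, -1.58 and -1.66. In the matrix the first STAT4 probe differed by -0.78 in full-length cells and the second by -1.09. STAT3, the main factor downstream of gp130, had levels of -1.27, -1.17 and -1.18, and JAK3, the kinase of the common gamma chain, 0.14, -0.17 and -0.40. JAK1 had levels of 1.55, 1.72 and 1.12 by probe A_87_P037906, but its matrix value in full-length cells was 0.39, or -1.16 against wild type, and a second JAK1 probe differed by -1.05 there.

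None of 50 probes of 21 genes acting downstream of TNF and IL-1 receptors was called in any comparison, where 3.67%, 7.62% and 5.33% of all probes were. Their differences ran from -0.84 to 0.78 for full-length minus wild type, from -0.92 to 0.80 for truncated minus wild type and from -0.87 to 0.43 for truncated minus full-length. Among them, BCL10 differed from wild type by -0.84 and -0.59 in full-length and -0.63 and -0.87 in truncated cells, and RIPK1, a kinase at TNF receptors, by 0.78 and 0.32. The median of the list in truncated against wild type was -0.21, beside 0.01 for all probes. As only 21 of the 48 listed genes had a named probe, the pathway was read in part only.

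Of 25 probes of 11 genes acting downstream of chemokine receptors, 3 were lower in full-length cells and 5 in truncated cells against wild type. This stands beside 2.24% and 3.76% of all probes. In truncated against full-length cells 0 of the 25 were called, beside 5.33% of all probes. PIK3R5, a regulatory subunit of the lipid kinase that G proteins activate, differed from wild type by -1.94, -1.64 and -1.93 in full-length cells and by -1.81, -1.15 and -1.35 in truncated cells. Its brightest probe had levels of 1.35, -0.59 and -0.47, and a matrix value of -0.32. GNG2, a G-protein gamma subunit, differed from wild type by -1.28 and -1.29 on 2 probes in truncated cells, with levels of -1.79 and -1.05 in wild type and -3.07 and -2.34 in truncated cells. The matrix values gave 2 lower calls in truncated against full-length cells, GNG2 at -1.01 and RAC2 at -1.02, beside 1.31% of all probes.

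Of cytokine-related genes outside the name rule, 31 probes of 16 genes were measured in truncated against wild type, where 5 were higher and 2 lower, beside 3.86% and 3.76% of all probes. In full-length against wild type 1 of 30 was higher and 0 lower (2 and 0 by the matrix), beside 1.43% and 2.24% of all probes. In truncated against full-length 3 of 31 were higher and 0 lower (2 and 2 by the matrix), beside 3.65% and 1.68%. In truncated against wild-type cells TGFB2, a ligand of the TGF-β family, was higher on all 3 probes by 1.29 to 1.43. Its brightest probe had levels of 0.51, 0.77 (0.45 in the matrix) and 1.88 in wild-type, full-length and truncated cells. TGFB3 was higher in truncated than in wild-type cells by 1.09 on 1 probe and by 0.57 to 0.87 on the others. The receptor TGFBR2 had levels of -5.43, -3.57 and -3.82, and was called in both DKO lines against wild type, by 1.86 in full-length cells (1.24 with the matrix) and 1.61 in truncated cells, while TGFBR1 differed by -0.57 and -0.39 in truncated cells. CD74, which chaperones MHC class II and binds the cytokine MIF, was called lower in truncated than in wild-type cells on 2 probes. The brighter had levels of 5.51, 4.96 and 4.09.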

How the data were processed

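Per the labels, total RNA was prepared from each line with a blood RNA kit that includes globin removal, labelled with Cy3 and put on 1 Agilent chicken array per group. Per the file headers, Agilent Feature Extraction 11.5.1.1 gave the deposited processed signal, a linear intensity corrected for background within each array and not scaled between arrays. The authors' deposited matrix gives a second intensity whose making is not stated.

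Outlier-flagged spots were dropped, at a cost of 7 of 43603 probes, and 0 spots were saturated. Each level is the log2 processed signal less the log2 of that array's 75th percentile. A bound sets the measured value against the dim probe's level or, where that is lower, against the lowest level rated well above background on its array. RefSeq accessions were matched to the GRCg7b gene table, which named 11934 probes of 5382 genes. The array was annotated on galGal3, so no coordinates are given.

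With 1 array per group no test was possible, and precision is limited by there being so few arrays. Python 3.11.15 and limma 3.58.1 were used, and the calling procedure was tested on simulated data. The simulated differences lay beyond the threshold, and the noise was smaller than the spread between probes of a gene. That run therefore checks the code only and does not measure how reliable the calls are. Members and lists were chosen with earlier results of these data known. Described with values were called genes, genes with a bound of 2-fold, genes whose probes disagreed, the members of highest signal and their ligands or receptors. The normexp alternative used the deposited median signal with an offset of 50. Of the genes counted in the totals, 1 is not reported here. Every per-sample column was mapped (0 left unused).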

Additional observations from a re-analysis of the deposited data

Results flagged for a closer look

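Of the 59 probes that met the name rule but were not well above background on any scanner array, 3 had, in the matrix column of the full-length sample, a signal above the highest detection limit of the 3 arrays, a log2 level of -7.20. A probe of IL7R stood at -4.08 in the matrix, against -9.22, -9.34 and -8.75 on the wild-type, full-length and truncated arrays. A probe of IL22 stood at -6.30, against -7.79, -9.32 and -8.41. The IL4 probe stood at -6.67, against -9.26, -9.51 and -7.79. The other IL7R probe did not share this signal, with a matrix level of -8.06.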

How the results depend on the processing

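Results were recomputed with median scaling, quantile normalization, normexp with quantile normalization, the matrix values, no background filter, a threshold of 1.5-fold and the brightest probe of each gene. The counts of called member probes, 9 for full-length minus wild type, 21 for truncated minus wild type and 16 for truncated minus full-length, became 4, 13 and 7 with normexp and 15, 33 and 31 at 1.5-fold. With the brightest probe per gene, where fewer probes are tested, the last 2 counts were 11 of 45 and 9 of 40. By the matrix the last was 8. No share over all probes is given at 1.5-fold or with the brightest probe per gene. At those settings the members cannot be set against the whole array. Normexp moved the higher share of calls in full-length against wild type from 33.3% to 50%. Of 46 called differences, all 46 kept their direction and moved by less than the spread between probes of a gene with median scaling and with quantile normalization, and all kept their direction with normexp, where 27 moved by more. By the matrix 28 moved by less than that spread, and 15 moved by more but kept their direction. The other 3 changed sign in truncated against full-length cells, to 0.57 for IL21R, 0.23 for IL6ST and 0.0019 for IL11RA. For IL11RA almost no difference was left. The cause was not tested. The share of all probes called was 1.53%, 3.71% and 2.2% with normexp, in place of 3.67%, 7.62% and 5.33%, and 7.16% for full-length minus wild type by the matrix. Median differences over the members moved by less than the standard deviation of a difference estimated from repeated spots under each alternative run. No paired analysis was possible because each group holds 1 array, and for the same reason no replicate could be left out. A block for the slide or the scan could not be fitted. Members near background carry the least certain folds: repeated spots below a level of -4 varied with a standard deviation of 0.121 to 0.248.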
